A study of Mus musculus with 6 samples.

Results

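The genes of calcium release at the junctional sarcoplasmic reticulum were examined in C2C12, a line of mouse myoblasts whose cells fuse into myotubes when serum is withdrawn. The 10 genes were taken by symbol from the deposited matrix of 55401 genes: *Ryr1*, *Ryr3*, *Jph1*, *Jph2*, *Trdn*, *Asph*, *Casq1*, *Casq2*, *Hrc* and *Srl*. The data hold 3 control libraries and 3 *Phf2* KO libraries of polyadenylated RNA, from cells kept for 2 d in medium with 2% horse serum. The control cells, labelled wild type, were mock cells that had received a ZsGreen plasmid without a *Phf2* guide, and the *Phf2* KO cells had received 4 pooled guide plasmids. PHF2 is a demethylase of H3K9me2, and the comparison asks how its loss changes transcription during myogenesis. Each group is a pool of sorted cells and not a clone, and the replicates are wells of 1 experiment, so the p-values measure the spread between wells. Differences between the 2 pools that do not come from *Phf2* cannot be told apart from those that do.

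In skeletal muscle, an action potential runs along the T-tubule and is sensed by the dihydropyridine receptor. This receptor opens the ryanodine receptor, the calcium release channel of the facing reticulum membrane. Junctophilins hold the membranes together, triadin and junctin link the channel to calsequestrin inside the reticulum, and calsequestrin and other acidic proteins store the calcium. In cultured myoblasts these genes are switched on during differentiation.

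The stored calcium is bound by acidic residues, and these can be seen in the coding sequences of *Casq1*, *Casq2* and *Hrc*. Codons that begin with GA encode aspartate or glutamate. They made up 28.4% of the 405 codons of *Casq1*, 26.6% of the 418 codons of *Casq2* and 30.8% of the 738 codons of *Hrc*, against 10.9% to 19.5% in the other 7 genes (longest coding transcript of GENCODE M21). Among these 7, *Srl*, which also encodes a calcium-binding protein of the lumen, had the largest share of these codons, 19.5%. The last 90 coding bases of the calsequestrin genes are shown because they carry a run of these codons, in capitals, just before the stop codon. They lie at chr1:172210348-172210437 on the minus strand for *Casq1* and at chr3:102145338-102145427 on the plus strand for *Casq2* (GRCm38), each within a single exon. Of the 30 codons, 22 in *Casq1* and 24 in *Casq2* begin with GA. A 90-base stretch of *Hrc* at chr7:45335991-45336080, plus strand, is shown with its 10 CAC and CAT codons in capitals, which encode the histidines that name the protein.
Casq1: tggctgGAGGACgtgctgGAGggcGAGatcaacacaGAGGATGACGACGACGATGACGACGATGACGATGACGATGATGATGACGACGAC
Casq2: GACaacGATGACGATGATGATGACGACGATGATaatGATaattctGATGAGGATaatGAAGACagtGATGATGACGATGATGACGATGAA
Hrc: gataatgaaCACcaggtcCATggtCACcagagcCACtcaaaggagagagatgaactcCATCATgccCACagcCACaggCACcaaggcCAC

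The total of estimated counts per library was between 56821143 and 58507833 in control and between 52526109 and 67502788 in *Phf2* KO. These are not read numbers, since the values follow coverage times length divided by about 75 while the reads were 150 bp long. The level of *Phf2* itself was 102.4, 95.5 and 104.6 CPM in control replicates 1, 2 and 3, and 41.1, 37.6 and 38.6 CPM in *Phf2* KO replicates 1, 2 and 3. CPM is the count scaled to equal library sizes by TMM. The log2 fold change of *Phf2* was -1.37 (quasi-likelihood test in edgeR, adjusted p = 8.32e-09, standard error 0.055), so part of the *Phf2* RNA remained in the pool. The RNA level does not measure the protein, which the paper reports as far lower in the knockout myoblasts. The 12 myotube markers were all detected in every library, and their summed level was 5559 to 6492 CPM in control and 4295 to 4601 CPM in *Phf2* KO. Of these 12 markers, 11 were lower past the threshold, an adjusted p under 0.05, as were 3.26% of all genes tested. The median log2 fold change of the 12 markers was -0.49, against -0.001 over all genes tested. The part of this shift in the results below was not tested. In bulk RNA, fewer differentiated cells and less RNA of these genes per cell cannot be told apart. Of the 8 markers of proliferating myoblasts, 0 passed the threshold with edgeR, exactTest or DESeq2 and 0 had an unadjusted p under 0.05, with summed levels of 271.8 to 287.6 CPM in control and 261.4 to 289.5 CPM in *Phf2* KO. The adipocyte markers summed to 0.361 to 0.824 CPM in control and 0.133 to 0.517 CPM in *Phf2* KO, and the osteoblast markers to 0.395 to 0.618 CPM and 0.458 to 0.748 CPM. Of the 8 cardiomyocyte markers, 2 were tested and 1 of them, *Myh6*, was lower past the threshold, while *Myl7* and *Myl3* had no count in any library, and the sum was 20.1 to 27.8 CPM in control and 12.7 to 13.35 CPM in *Phf2* KO.

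In *Phf2* KO cells, 7 of the 10 genes were lower at an adjusted p under 0.05. A higher level was called for 0 of them, also by exactTest and DESeq2 and at an unadjusted p under 0.05. The 7 were *Ryr1*, *Ryr3*, *Jph1*, *Jph2*, *Casq2*, *Hrc* and *Srl*, with log2 fold changes from -0.70 to -0.33. Among the 17310 genes tested, 3.26% were lower past the same threshold. The median log2 fold change of the 10 genes was -0.50, against -0.001 over all genes tested. *Casq1* was as low as these genes but more variable, and *Trdn* and *Asph* stayed near the control level. All 10 genes passed the filter on low counts, with counts from 683 to 31201 per library. For 8 genes, the 7 and *Casq1*, all 3 *Phf2* KO libraries lay below the lowest control library, as for 12.2% of the genes tested.

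**Figure D1:**
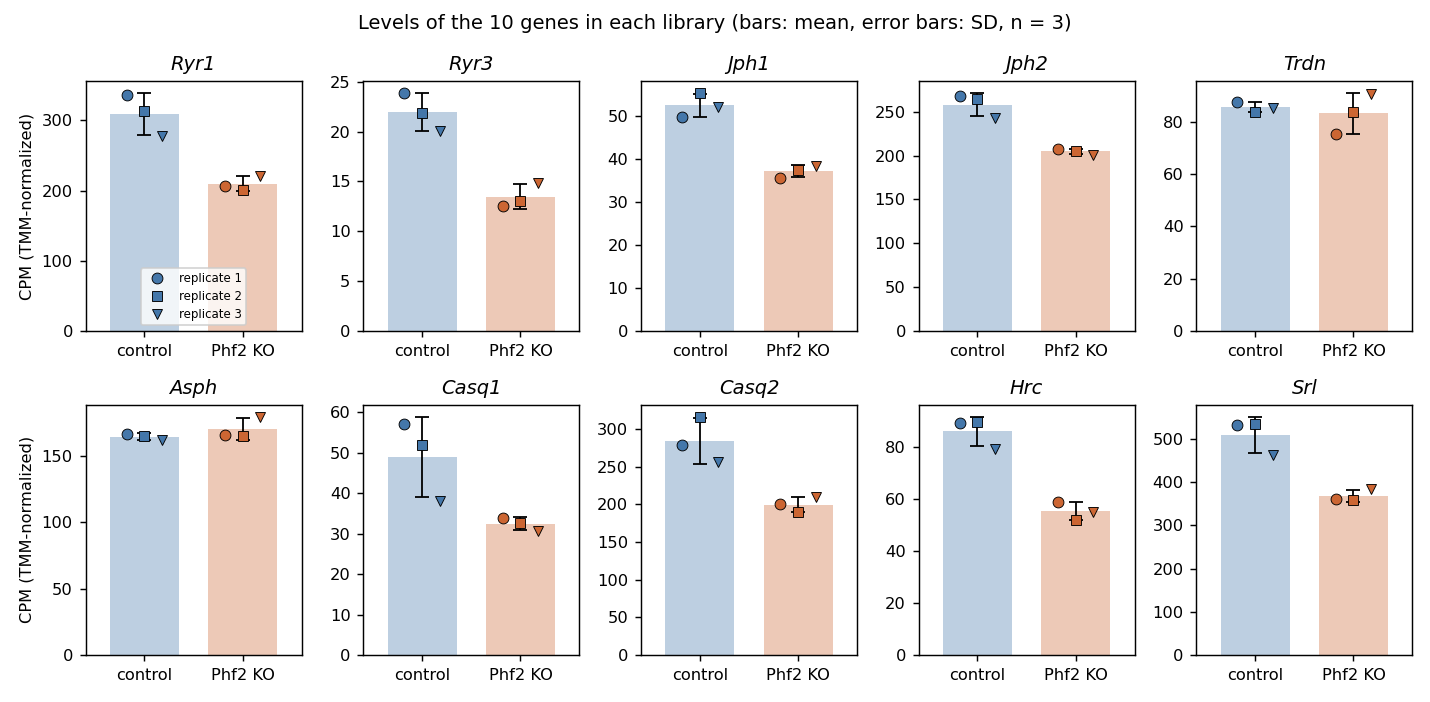
TMM-normalized level (CPM) of each of the 10 genes in the 3 control and 3 *Phf2* KO libraries, with the symbols marking replicates 1, 2 and 3, the bars the mean and the error bars the SD (n = 3). The groups are apart in 8 panels and overlap for *Trdn* and *Asph*.

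The ryanodine receptors are the release channels. *Ryr1* (ENSMUSG00000030592, chromosome 7, 29003344 to 29125179), the channel of adult skeletal muscle, had 336.6, 314.1 and 277.6 CPM in control replicates 1, 2 and 3, and 207.4, 201.2 and 221.3 CPM in *Phf2* KO replicates 1, 2 and 3. The lowest control library was thus above the highest *Phf2* KO library, and the *Phf2* KO mean was 67.9% of the control mean. By edgeR, the log2 fold change was -0.56 (adjusted p = 4.45e-04, standard error 0.065). *Ryr3* (ENSMUSG00000057378, chromosome 2, 112631355 to 113217096), an isoform found in developing muscle, had 23.9, 21.8 and 20.1 CPM in control and 12.55, 13.0 and 14.9 CPM in *Phf2* KO. It was the least abundant of the 10 genes, and its groups were also apart. Its log2 fold change was the largest of the 10 in size, -0.70 (adjusted p = 7.43e-04, standard error 0.098). The end of *Ryr3* overlaps exons of *Aven*, which lies on the opposite strand and had a mean of 511 counts, against 683 to 1361 for *Ryr3*. The library kit keeps the strand, but whether strand was used in counting is not given in the sources used here. The cardiac isoform *Ryr2*, counted with the channel's modulators, had 0 to 6 counts per library.

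The junctophilins tether the reticulum to the T-tubule membrane. *Jph1* (ENSMUSG00000042686, chromosome 1, 16964560 to 17097889) had 49.75, 55.2 and 52.05 CPM in control and 35.6, 37.5 and 38.3 CPM in *Phf2* KO. The values within each group lay close together, and the log2 fold change was -0.50 (adjusted p = 2.63e-04, standard error 0.061). *Jph2* (ENSMUSG00000017817, chromosome 2, 163336242 to 163397993) had 267.3, 264.1 and 243.0 CPM in control and 207.5, 205.5 and 201.2 CPM in *Phf2* KO. Its *Phf2* KO libraries differed by a factor of at most 1.03, and its log2 fold change was the smallest of the 7, -0.33 (adjusted p = 6.86e-04, standard error 0.046). The neuronal junctophilins *Jph3* and *Jph4* were at 0 to 12 counts per library and were not tested.

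The calsequestrins are the main calcium buffers of the lumen. *Casq2* (ENSMUSG00000027861, chromosome 3, 102086415 to 102146514), the isoform of heart and slow fibers, had 278.9, 316.3 and 256.5 CPM in control and 200.5, 189.1 and 209.0 CPM in *Phf2* KO. The groups did not overlap, and the log2 fold change was -0.51 (adjusted p = 0.00182, standard error 0.071). *Casq1* (ENSMUSG00000007122, chromosome 1, 172209894 to 172219868) is the skeletal muscle isoform. It had 57.2, 52.0 and 38.1 CPM in control and 33.9, 32.7 and 30.7 CPM in *Phf2* KO. Control replicate 3 lay near the *Phf2* KO libraries, so that the control libraries differed by a factor of 1.502 and the *Phf2* KO libraries by 1.10. The log2 fold change of *Casq1* was -0.60 (95% interval -0.95 to -0.24, standard error 0.15), with an adjusted p of 0.0738. With the replicate number as a block, *Casq1* had an adjusted p of 0.00232, and without control replicate 3 it had 5.64e-05. It was also past the threshold with exactTest (2.67e-04) and with DESeq2 (5.12e-06), and over the other alternatives it was between 0.0615 and 0.294.

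*Hrc* and *Srl* encode further calcium-binding proteins of the lumen. *Hrc* (ENSMUSG00000038239, chromosome 7, 45335290 to 45338974), the histidine-rich protein whose codons are shown above, had 89.0, 89.4 and 79.35 CPM in control and 58.9, 51.8 and 55.1 CPM in *Phf2* KO. Each *Phf2* KO library was well below the lowest control library, and *Hrc* had the smallest p of the 10 genes, with a log2 fold change of -0.64 (adjusted p = 5.04e-05, standard error 0.062). *Srl* (ENSMUSG00000022519, chromosome 16, 4480216 to 4541816), which encodes sarcalumenin, had the highest CPM of the 10 genes. It had 532.3, 535.7 and 462.0 CPM in control and 361.8, 358.4 and 384.1 CPM in *Phf2* KO, with control replicate 3 lowest among the control libraries but apart from the *Phf2* KO libraries. The log2 fold change of *Srl* was -0.47 (adjusted p = 3.13e-04, standard error 0.056).

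*Trdn* and *Asph* encode the proteins that link the ryanodine receptor to calsequestrin. *Trdn* (ENSMUSG00000019787, chromosome 10, 33080554 to 33476709), which encodes triadin, had 87.45, 83.7 and 85.3 CPM in control and 75.2, 83.9 and 90.7 CPM in *Phf2* KO. The *Phf2* KO libraries spread on both sides of the control libraries, the log2 fold change was -0.04 (95% interval -0.17 to 0.09) and the adjusted p was 0.815. *Asph* (ENSMUSG00000028207, chromosome 4, 9448069 to 9669344) had 166.6, 164.7 and 161.6 CPM in control and 165.9, 164.6 and 179.4 CPM in *Phf2* KO. Only *Phf2* KO replicate 3 lay outside the control range, and the log2 fold change was 0.05 (95% interval -0.05 to 0.15), with an adjusted p of 0.643. The upper bound of the interval for each of the other 8 genes was at most -0.235, below the lower bound for *Trdn* and for *Asph*. *Asph* has 20 annotated transcripts, 15 of them coding, which encode an aspartate hydroxylase of the reticulum as well as junctin and junctate. The gene count sums them, so the level of junctin alone was not measured.

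The deposited tables also list loci assembled from the reads. For *Trdn*, the assembled locus that covers the gene held 1.75 to 1.96 times the TPM of the annotated gene, where TPM is a level scaled for length within each library. The TPM of this locus was 55.7, 50.3 and 53.5 in control and 46.8, 50.5 and 63.3 in *Phf2* KO. The groups overlapped on this measure as well, with means of 53.1 ± 2.68 TPM and 53.5 ± 8.65 TPM (SD, n = 3, two-sided exact permutation test, p = 0.9, where 0.1 is the smallest p this test can give for 3 against 3 libraries). On the same measure, the groups stayed apart, lower in *Phf2* KO, for *Ryr1*, *Jph1*, *Jph2*, *Casq1*, *Casq2* and *Hrc*, and overlapped for 4 of the 10 genes, *Trdn*, *Asph*, *Srl* and *Ryr3*. The assembled locus of *Srl* had 142, 289.2 and 247.1 TPM in control and 191, 117.1 and 133.7 TPM in *Phf2* KO, between 0.64 and 1.28 times the annotated gene. That of *Ryr3* spanned only 42.9% to 63.1% of the gene and had 3.395, 1.75 and 0.907 TPM in control and 2.28, 1.85 and 1.62 TPM in *Phf2* KO.

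**Figure D2:**
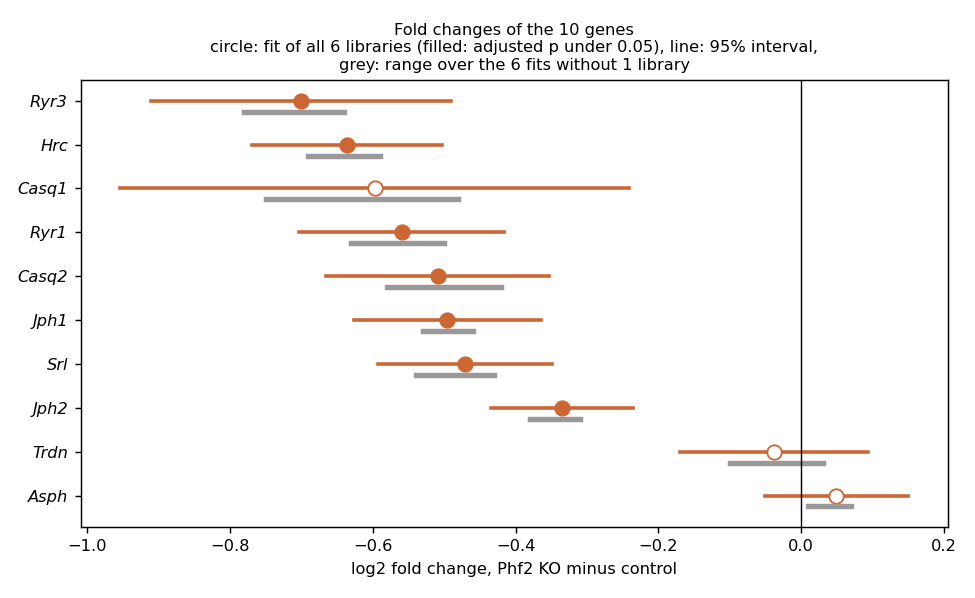
Log2 fold change of *Phf2* KO against control for each of the 10 genes, with its 95% interval and, in grey, the range over 6 fits, with 1 library left out of each. Filled circles mark an adjusted p under 0.05. The intervals of 8 genes lie below 0, and those of *Trdn* and *Asph* include it.

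Within the control group, 8 of the 10 genes were lowest in replicate 3, where 34.1% of all genes tested were. Within the *Phf2* KO group, 7 of the 10 were highest in replicate 3, as were 34.4% of all genes tested. These counts are a description, with no test. Fits without 1 library gave 7 of the 10 genes lower past the threshold, and 8 without control replicate 3. Of all genes, 2.41%, 1.47% and 2.97% were lower without control replicate 1, 2 and 3, and 2.64%, 1.78% and 1.82% without *Phf2* KO replicate 1, 2 and 3. The 7 genes passed in each of these fits, with adjusted p-values of at most 0.0161 for *Casq2* and at most 0.00971 for the other 6. With exactTest, DESeq2 and the replicate block, 8 of the 10 were lower past the threshold, beside 3.42%, 5.58% and 3.86% of all genes. With DESeq2's size factors, library size alone, no filter and counts divided by 4, the number was 7, beside 3.31%, 3.26%, 2.16% and 4.6%. On the length-scaled TPM, limma called fewer genes in all. It gave 5 of the 10 lower on log2(TPM + 1), on log2(TPM + 0.1) and with a mean of at least 1 TPM, beside 0.508%, 0.578% and 0.957% of all genes, and 0 with no filter, beside 0.00984%. *Ryr1* and *Ryr3* did not pass in these limma fits, with adjusted p-values of 0.0889 and 0.224 on log2(TPM + 1). *Ryr3* had 3.27, 5.75 and 3.22 TPM in control and 1.45, 2.40 and 2.24 TPM in *Phf2* KO, which left the groups apart but control replicate 2 far above the other controls.

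Levels were compared between genes by TPM, since CPM rises with the length of a transcript. In control cells, *Casq2* (238.1 ± 21.5 TPM, SD, n = 3) and *Srl* (214.1 ± 16.4 TPM) were highest, and their ranges overlapped. *Jph2* followed with 132 ± 5.79 TPM. *Hrc* (76.9 ± 4.64 TPM) and *Asph* (74.7 ± 2.16 TPM) were next, with overlapping ranges. Below them came *Casq1* (57.5 ± 11.3 TPM), *Ryr1* (36.8 ± 5.66 TPM), *Trdn* (27.6 ± 0.97 TPM) and *Jph1* (23.2 ± 1.16 TPM), each apart from its neighbours in the order. *Ryr3* was lowest, with 4.08 ± 1.45 TPM. In *Phf2* KO cells the order of the means differed at 2 places. *Asph* (75.1 ± 4.54 TPM) stood above *Hrc* (49.6 ± 2.67 TPM), and *Trdn* (29.6 ± 6.06 TPM) above *Ryr1* (25 ± 1.43 TPM), although *Trdn* and *Ryr1* overlapped there. These are levels of the annotated genes. On the assembled loci, the control means were 53.15 TPM for *Trdn* and 49.77 TPM for *Ryr1*, with overlapping ranges. The *Phf2* KO means were 53.53 and 33.76 TPM. The order of *Trdn* and *Ryr1* in control thus depends on the measure.

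The levels of *Trdn* and of the whole *Asph* gene, all its transcripts summed, were also set against that of *Ryr1* as a ratio of TPM. The TPM used was that of the annotated genes and not of the assembled loci. The values of *Trdn* per *Ryr1* were 0.668, 0.849 and 0.760 in control and 1.02, 1.15 and 1.36 in *Phf2* KO. The values of *Asph* per *Ryr1* were 1.76, 2.32 and 2.095 in control and 3.00, 3.00 and 3.02 in *Phf2* KO. Both ratios were higher in every *Phf2* KO library. For *Casq2* per *Ryr1*, the means were 6.61 ± 1.53 in control and 6.81 ± 0.26 in *Phf2* KO (SD, n = 3), and for *Hrc* per *Ryr1* they were 2.12 ± 0.37 and 1.99 ± 0.15, with groups that overlapped. These ratios were formed after the values had been seen and are given without a test.

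**Figure D3:**
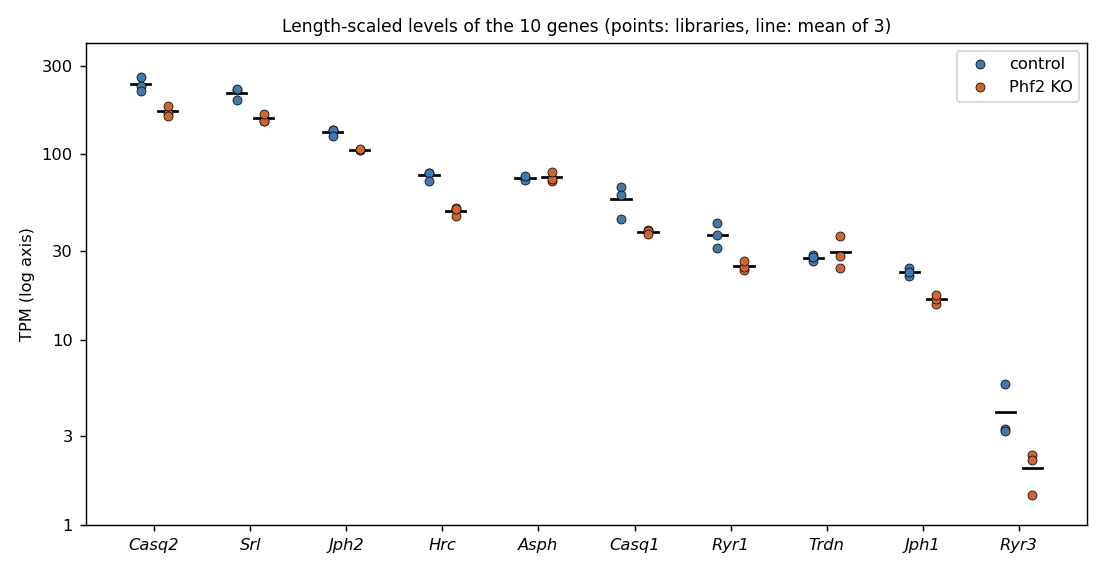
Length-scaled level (TPM, log axis) of the 10 genes in each control and *Phf2* KO library, ordered by the control mean, with lines at the mean of 3 libraries. *Casq2* and *Srl* are highest and *Ryr3* is lowest, and the mean of *Asph* stays at 74.7 and 75.1 TPM while that of *Hrc* is 76.9 and 49.6 TPM.

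The 10 genes hold 3 pairs of paralogues, and whether their members changed unequally was tested on the log2 ratio of their counts within each library. *Casq2* made up 77.8%, 81.2% and 82.9% of the summed TPM of the calsequestrins in control and 81.0%, 80.7% and 83.15% in *Phf2* KO. *Casq2* was thus the major calsequestrin transcript in both groups. The log2 ratio of *Casq2* to *Casq1* was 2.55 ± 0.24 in control and 2.62 ± 0.13 in *Phf2* KO (SD, n = 3, exact permutation test, adjusted p = 0.8 over 3 pairs). *Jph2* made up 84.4% to 86.05% of the junctophilin TPM in control and 85.9% to 87.15% in *Phf2* KO. Its log2 ratio to *Jph1* was 2.30 ± 0.11 and 2.46 ± 0.08 (SD, n = 3, exact permutation test, adjusted p = 0.3). *Ryr3* made up 7.14%, 15.5% and 8.08% of the TPM of *Ryr1* and *Ryr3* in control and 5.72%, 8.89% and 7.78% in *Phf2* KO. On counts, the log2 ratio of *Ryr3* to *Ryr1* was -3.82 ± 0.03 in control and -3.96 ± 0.08 in *Phf2* KO, lower in 3 of 3 *Phf2* KO libraries (SD, n = 3, exact permutation test, p = 0.1, adjusted p = 0.3). This exact test can give no p under 0.1 for 3 libraries against 3, so a p above 0.05 does not show that the members of a pair changed alike. The longest run of bases shared by the transcripts of a pair was 30 for the ryanodine receptors, 35 for the junctophilins and 25 for the calsequestrins, all far below the read length of 150 bp.

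The other genes of the pathway were counted in 6 lists with 56 genes, of which 49 were tested. Of these, 14 were lower and 4 were higher past the threshold in *Phf2* KO cells (3.26% and 3.22% of all genes tested). The lower genes stood mainly in the lists of triad scaffolds and of the dihydropyridine receptor. In the triad list, whose median log2 fold change was -0.42, 8 of 11 tested genes were lower past the threshold. *Cav3*, the muscle caveolin, had 11.9 ± 1.87 CPM in control and 4.53 ± 0.88 CPM in *Phf2* KO (SD, n = 3), and its log2 fold change was -1.39 (adjusted p = 1.81e-04, standard error 0.16). *Tmem38a*, a potassium channel of the reticulum membrane, fell from 124.8 ± 7.89 CPM to 85.0 ± 1.02 CPM (log2 fold change -0.55, adjusted p = 3.22e-05). *Jsrp1*, which encodes a protein of the junctional membrane, fell from 65.5 ± 5.73 CPM to 45.9 ± 3.64 CPM (log2 fold change -0.51, adjusted p = 0.00104). *Ank1*, an ankyrin gene with a muscle form in the reticulum membrane, fell with a log2 fold change of -0.54, and *Bin1*, which shapes the T-tubule, with -0.24. All 8 also passed with the replicate block.

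For the dihydropyridine receptor and its partner STAC3, 4 of 5 genes were lower past the threshold, with a median of -0.41 for the log2 fold change. *Cacna1s*, the pore and voltage sensor, had 78.0 ± 7.14 CPM in control and 46.8 ± 3.83 CPM in *Phf2* KO (log2 fold change -0.74, adjusted p = 1.28e-04). *Stac3*, *Cacng1* and *Cacnb1* had log2 fold changes of -0.49, -0.41 and -0.38. *Cacna2d1*, the subunit that did not pass, had 181.4 ± 3.29 CPM and 168.4 ± 15.6 CPM (log2 fold change -0.11, adjusted p = 0.352). *Cacng1* passed in only 2 of the 6 fits without a library, with an adjusted p of up to 0.107.

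The modulators that bind the ryanodine receptor gave another picture. Of 9 tested modulators, 0 passed the threshold with edgeR, exactTest, DESeq2 or the replicate block, and 3 had an unadjusted p under 0.05. *Fkbp1a*, the FK506-binding protein that stabilizes the closed channel, had 261.8 ± 4.37 CPM in control and 263.9 ± 8.38 CPM in *Phf2* KO (SD, n = 3, log2 fold change 0.01). The calmodulin genes *Calm2* and *Calm3* had log2 fold changes of 0.13 and -0.08, with adjusted p-values of 0.139 and 0.433. Most of these proteins also act outside muscle.

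Among the calcium pumps, *Atp2a1* and *Atp2a2* had lower means in *Phf2* KO and *Atp2a3*, at a low level, a higher one. The general calcium genes of the reticulum moved in both directions. *Atp2a2*, the pump of slow and nonmuscle cells, was lower by a small amount (log2 fold change -0.15, adjusted p = 0.0445). It passed in 1 of the 6 fits without a library and had an adjusted p of 0.183 with exactTest. *Atp2a1*, the fast pump, had 820.0 ± 118.5 CPM in control and 534.7 ± 42.3 CPM in *Phf2* KO, and the groups did not overlap. Its log2 fold change was -0.62, with an adjusted p of 0.0609 by edgeR and 0.00928 with the replicate block. *Atp2a1* passed with exactTest (1.56e-06) and DESeq2 (1.83e-04), but not without the filter on low counts (0.129). It passed in 2 of the 6 fits without a library. *Atp2a3* rose from 0.64 ± 0.07 CPM to 1.75 ± 0.88 CPM (adjusted p = 0.035), a low level at which 1 of the 6 fits without a library passed and the fit with the block gave 0.0507. *Mrln*, which encodes the pump inhibitor myoregulin, had 1.45 ± 0.23 CPM and 1.29 ± 0.34 CPM (log2 fold change -0.17, adjusted p = 0.823). Among 8 genes of the IP3 receptors and store-operated entry, *Stim1*, the reticulum calcium sensor, rose (log2 fold change 0.26, adjusted p = 0.0129) and *Itpr3* fell (log2 fold change -0.19, adjusted p = 0.0295). Leaving out a library kept *Stim1* past the threshold in 4 fits and *Itpr3* in 0. The direction of *Stim1* turned on TPM, where the control mean was 22.2 and the *Phf2* KO mean 20.3 (limma on log2(TPM + 1), log2 fold change -0.15, adjusted p = 0.742). *Stim2*, a related sensor, had a log2 fold change of -0.01 (adjusted p = 0.9355). Among 12 luminal proteins of the general endoplasmic reticulum, *Rcn1* and *Rcn2*, which encode reticulocalbins, rose with log2 fold changes of 0.18 and 0.17 (adjusted p = 0.0143 and 0.0318), and these passed in 3 and 0 of the 6 fits. The chaperone genes *Calr*, *Hsp90b1* and *Hspa5* had log2 fold changes of -0.06, 0.04 and -0.09, with adjusted p-values of at least 0.294.

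**Figure D4:**
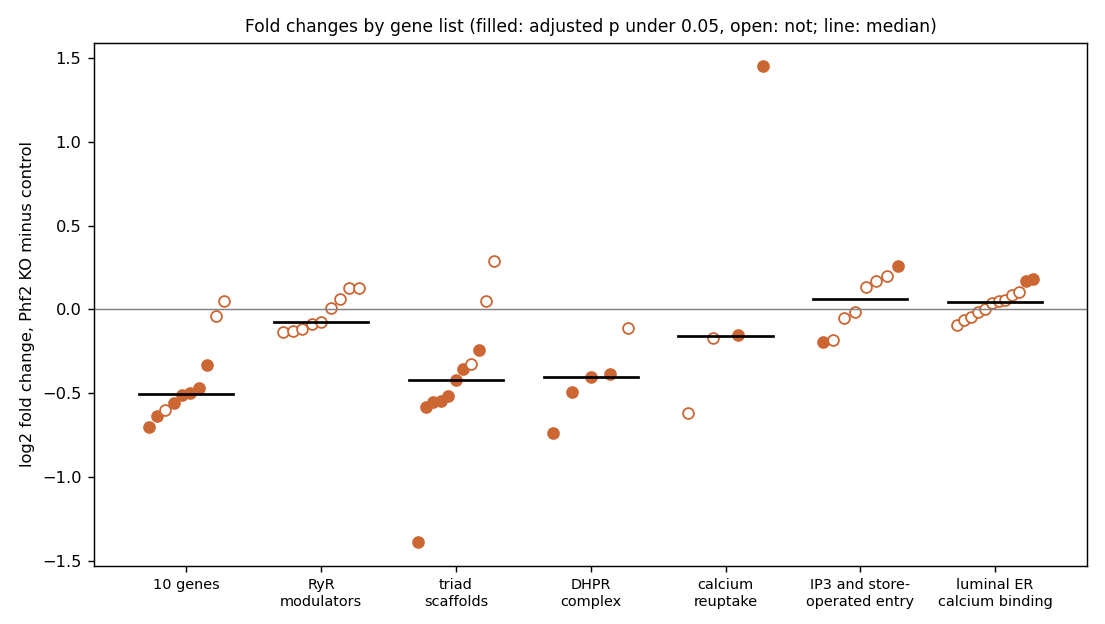
Log2 fold change of *Phf2* KO against control for the 10 genes and for the tested genes of the 6 pathway lists, with filled circles for an adjusted p under 0.05 and lines at the medians. The medians of the 10 genes, the triad scaffolds and the DHPR complex are -0.50, -0.42 and -0.41, and those of the other lists lie between -0.16 and 0.06.

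Sequence upstream of the transcription start was at hand for 5 of the 10 genes in the RefSeq table (GRCm38.p6). It was searched for the E-box CANNTG, the motif that MYOD1 and MYOG bind as partners of E proteins, and for its form CAGCTG, on both strands. CANNTG was present in 4 of the 5 genes, and 66.2% of all 32851 windows of 250 bases held it. The gene without a match was *Ryr1*, searched over 222 bases, which was also lower past the threshold. CAGCTG, which is also a CANNTG, was present in *Jph2*, *Casq1* and *Hrc*, and 13.0% of all windows held it. Of the 4 genes with a CANNTG match, 3 were lower past the threshold, *Jph2*, *Casq2* and *Hrc*. The windows with a match are printed 5′ to 3′ on the strand of the gene, with the matches in capitals to show their place. They end at the base before the first start in RefSeq and lie at chr2:163397994-163398243 (minus strand) for *Jph2*, chr1:172219896-172220145 (minus strand) for *Casq1*, chr3:102086165-102086414 (plus strand) for *Casq2* and chr7:45335019-45335268 (plus strand) for *Hrc*. The first base of CAGCTG is 9 bases before the start in *Jph2*, 22 in *Hrc* and 195 in *Casq1*. A match is only a match of letters, and binding was not measured in these data.
Jph2: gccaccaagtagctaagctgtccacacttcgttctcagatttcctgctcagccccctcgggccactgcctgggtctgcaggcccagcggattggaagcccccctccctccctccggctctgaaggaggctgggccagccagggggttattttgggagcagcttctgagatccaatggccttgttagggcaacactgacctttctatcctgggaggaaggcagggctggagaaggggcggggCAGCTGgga
Casq1: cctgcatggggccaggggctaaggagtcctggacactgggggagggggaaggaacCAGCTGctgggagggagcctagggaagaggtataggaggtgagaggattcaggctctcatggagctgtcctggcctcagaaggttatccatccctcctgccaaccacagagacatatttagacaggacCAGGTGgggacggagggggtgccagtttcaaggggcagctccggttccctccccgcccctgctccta
Casq2: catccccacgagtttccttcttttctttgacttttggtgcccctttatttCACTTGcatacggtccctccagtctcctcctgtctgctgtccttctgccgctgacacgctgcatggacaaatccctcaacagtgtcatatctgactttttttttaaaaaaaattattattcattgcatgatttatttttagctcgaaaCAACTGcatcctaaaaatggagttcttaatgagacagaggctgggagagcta
Hrc: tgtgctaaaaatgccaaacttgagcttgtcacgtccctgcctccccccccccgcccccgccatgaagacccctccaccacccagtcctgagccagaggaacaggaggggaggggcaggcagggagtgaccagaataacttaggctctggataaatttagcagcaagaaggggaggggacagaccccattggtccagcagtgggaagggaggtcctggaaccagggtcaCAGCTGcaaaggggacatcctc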

How the data were processed

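Poly(A) RNA of 6 libraries was sequenced with paired-end reads of 150 bp. Per the labels and the study's methods, the authors used HISAT2 for alignment to mm10 and StringTie for gene counts, with versions not given in the sources used here. The deposited matrix holds estimated gene counts as whole numbers, not scaled by library size. The table that the authors deposited for each library holds TPM, a signal scaled within each library, listed for annotated genes and again for assembled loci. The deposited coverage (mean depth per base) was used only for the unit of the counts. All columns were used. Coordinates are those of GENCODE M21 (GRCm38), which gave 54349 of the 55401 identifiers with the same version.

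The main analysis of the counts used edgeR 4.0.16 (R 4.3.3): filterByExpr (minimum count 10), TMM, and the quasi-likelihood test with robust dispersions (common biological coefficient of variation 0.135). P-values were adjusted by Benjamini-Hochberg over 17310 genes, with a threshold of 0.05. Standard errors are the log2 fold change over the root of F. Single values were compared by two-sided exact permutation tests (SciPy 1.17.1). At the counts of the 10 genes, 683 or more, counting error is small beside the common coefficient of variation. It weighs more for genes with low counts, such as *Atp2a3* with 32 to 164. The part of counting error in the spread between libraries was not measured.

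The 10 genes and the pathway lists were chosen with earlier results of these data known. Besides the 10 genes and *Phf2*, the genes named were, for each list, up to 5 past the threshold with the largest change and the 3 with the highest TPM, except for an item that is not reported here. *Ryr2*, *Jph3*, *Jph4*, *Aven*, *Myh6*, *Myl7* and *Myl3* were named after their values were seen. The alternatives were exactTest (the function the study used), DESeq2 1.42.0, other scalings, no filter, counts divided by 4 and a replicate block. Limma 3.58.1 on log2(TPM + 1) and log2(TPM + 0.1), and leaving out each library, were also run. The exactTest run here called 1129 genes, far more than the paper reports, so its calls are not the study's own.

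Whether the replicate numbers pair the libraries is not known, and the main fit used no pairing. Deviations from the group mean, taken over 10923 genes with 5 CPM or more, correlated by 0.25, 0.236 and 0.158 between libraries of the same number and by at most -0.013 between others. These correlations run across genes, and genes are not independent replicates. The deviations cancel out within each group, so the values between libraries of unlike number are not separate evidence of a pairing. The study describes no pairing. On simulated counts of 16836 genes for this comparison, the quasi-likelihood test found 59.6% of genes set to a 2-fold change and 51.5% at 1.5-fold.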

Additional observations from a re-analysis of the deposited data

How the results depend on the processing

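Limma on log2(TPM + 1) with no filter gave 0 of the 10 genes, 0 pathway genes and 4 of the 30495 genes it tested. On log2(TPM + 1), on log2(TPM + 0.1) and, chosen after seeing the data, with a mean of at least 1 TPM, limma gave 5, 5 and 7 pathway genes and 158, 178 and 250 genes in all, against 18 and 1122 with edgeR. Fits without 1 library gave 7 to 8 of the 10 genes, 10 to 16 pathway genes and 468 to 1039 genes in all. The number of pathway genes was 10 when control replicate 2 or *Phf2* KO replicate 2 was left out, and the number in all was then 468 and 577, and 613 when *Phf2* KO replicate 3 was. The cause of these differences was not tested.

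The log2 fold change of *Trdn* turned positive, without passing, at 0.08 in the limma fits and 0.01 on the assembled locus (chosen after seeing the data), and it was between -0.10 and 0.03 without 1 library, positive only without *Phf2* KO replicate 1. *Stim1* turned to -0.146 with limma on log2(TPM + 1), in all 3 forms run, and to -0.153 on log2(TPM + 0.1), without passing. Without 1 library, *Fkbp1a* was between -0.005 and 0.038 and *Stim2* between -0.042 and 0.027. On the assembled locus, the log2 fold change of *Ryr3* was -0.07. The difference in the log2 ratio of *Casq2* to *Casq1* was between -0.058 and 0.175 without 1 library, and that in the share of *Casq2* between -0.448 and 2.12 percentage points, both negative only without control replicate 1. With the replicate block, the exact permutation test of the log2 ratios gave p = 0.25, 0.25 and 0.75 for ryanodine receptors, junctophilins and calsequestrins, where 0.25 is the smallest p it can give. The replicate block changed the call of *Casq1* and of no other of the 10 genes. The lowest count of the 10 genes was 683, and 7 of them also passed with counts divided by 4.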
